A study of Arabidopsis thaliana with 77 samples.

Results

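Line 2-69 is 1 of 4 Arabidopsis thaliana lines named episuppressors in the labels, and the set described here is made of the single-base changes called in its genome and in no other sequenced library of the same experiment. A call of line 2-69 was taken when its chromosome, position and called base were missing from the other 4 deposited call files, its quality score was 50 or more and its depth was 10 reads or more. The rule gave 968 own calls of the 6992 calls of the library on chromosomes 1 to 5 (13.8%), out of 34875 calls and 15725 different variants in the 5 files. The set was thus chosen by quality score, depth and absence from the other files, and none of these is a result.

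All 5 libraries were made from genomic DNA of rosette leaves of plants aged 4 weeks, of the Columbia ecotype, grown on soil without treatment, and were sequenced on a HiSeq2000 as read pairs. The lines 2-69, 2-20, 3-72 and 3-75 are labelled with the genotype rdr1 rdr2 rdr6 ddm1, and the remaining library is labelled rdr1 rdr2 rdr6. That last library was heterozygous at the DDM1 change carried by the lines (9 of 19 reads), so it is called by its label throughout. There was 1 library per line, and whether the leaves of a library came from 1 plant or from several is not given in the sources used here. The median depth at the calls of each library ran from 17 to 37 reads, and 2-69 was the library with 37.

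RDR1, RDR2 and RDR6 are RNA-dependent RNA polymerases, which copy transcripts into double-stranded RNA for Dicer enzymes to cut into small RNAs. DDM1 is a chromatin remodelling ATPase that keeps DNA methylation over transposons, and its loss in Arabidopsis activates many of them. Alkylating agents, often used on seeds to find suppressor mutations in plants, are known to give G/C to A/T changes, but whether these lines were treated with one is not given in the sources used here. A C to T change and a G to A change are the same base-pair change read on opposite strands. Below, C to T means that the cytosine lay on the plus strand of the reference and G to A that it lay on the minus strand.

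The sequences below are those of the calls the results turn on. Each is 29 bases of the plus strand of TAIR10, and the capital marks the reference base that was called changed. The first group holds the 4 homozygous stop codons and the homozygous splice-site change, which end or interrupt a coding sequence. The second group holds the 3 changes in genes of RNA silencing and meiosis. The last pair holds the nearest homozygous calls before and after the place on chromosome 2 where such calls turn from G to A into C to T.
AT1G64500, chr1:23953652-23953680: gaagcatcgccgcgCaaatcccgacgaca
SVL2, chr1:24993118-24993146: ctatgaaccacttaCttttgtatcttgca
AT1G67520, chr1:25305202-25305230: caaagcccgctactCcaatacatgtttcc
AT2G27650, chr2:11796577-11796605: ttagttcggcacatCcaaaatgtccattt
BGLU24, chr5:10483228-10483256: attcttcattaattGaatatcttcctaca
FANCM, chr1:13090947-13090975: ggttttctttgtcaCtccacaagtgttag
XRN4, chr1:20355870-20355898: taaagccatttcctCctttatggcatgaa
MUS81, chr4:15028732-15028760: cgacgccaaggatcCcattaacacactca
last G to A, chr2:7965988-7966016: tcgaattctaaatcGgagactaaacctga
first C to T, chr2:11657924-11657952: agcgatgtcggtaaCtttggtccatccat

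The own calls were compared by type of change with 2 sets of calls. The first set was made in all 5 files and the second in the rdr1 rdr2 rdr6-labelled library alone. Both sets were held to the same limits of quality and depth, but differed from the own calls in place and depth. Within 3 Mb of the approximate centromere positions lay 82.2% of the first set, 80.95% of the second and 30.48% of the own calls. Their median depths were 59, 32.5 and 30 reads. Nearly all own calls were G/C to A/T. They were 929 of 968 (95.97%, Wilson 95% interval 94.54 to 97.04), made of 526 C to T and 403 G to A changes. The share was 18.54% among 2298 calls in all 5 files and 28.57% among 42 calls made in the rdr1 rdr2 rdr6-labelled library alone. The excess was 77.43 percentage points over the calls in all 5 files (75.26 to 79.3, Fisher's exact test, adjusted p at most 5e-300) and 67.4 points over those of the rdr1 rdr2 rdr6-labelled library alone (52.34 to 78.85, adjusted p = 1.655e-28). All Fisher's tests here are two-sided, adjusted by Benjamini-Hochberg over the 5 that could be made, and compare sets of linked calls in these libraries, not lines. The intervals cover counting error only.

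The 39 remaining own calls comprised 16 A to G or T to C changes and 23 transversions. Of these 39, 28 were heterozygous and 28 lay within 3 Mb of the approximate centromere positions. The protein was altered by 3 of them, all heterozygous, in ANL2 (V621D), BUD2 (I220T) and AT5G52530 (K369R). A protein change is written as reference residue, residue number and changed residue.

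The cytosines of the 929 G/C to A/T calls were set beside all cytosines of chromosomes 1 to 5. An A followed the changed cytosine in 17.22% of the calls (14.93 to 19.78), against 35.25% of all cytosines. A C followed it in 25.83% (23.12 to 28.74), against 18.77%, and a G in 19.48% (17.06 to 22.15), against 12.99%. The base before the cytosine was an A in 20.78% (18.29 to 23.5), against 29.04%. The share of A on both sides thus lay below that of all cytosines, outside the interval. An A followed in 18.8% of the homozygous and 15.38% of the heterozygous calls. Plants methylate cytosines in the contexts CG, CHG and CHH, where H is any base but G. CHH cytosines made up 62.76% of the changed ones, against 72.79% of all.

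The genotype given by the caller split the own calls into long homozygous and heterozygous pieces of chromosome. The homozygous calls numbered 511 (52.79%, 49.64 to 55.92) and the heterozygous calls 457. This share depended on the quality limit, and was 85.98% at quality of 100 or more and 30.15% with no minimum quality. Chromosome 4 was homozygous in 81 of 89 own calls and chromosome 2 in 94 of 114. Chromosome 5 was homozygous in 154 of 265, chromosome 1 in 113 of 246 and chromosome 3 in 69 of 254. The homozygous share therefore ran from 27.17% on chromosome 3 to 91.01% on chromosome 4.

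Read in order, the calls formed 77 runs of 1 genotype, of which 35 held 5 or more calls (20 at quality of 100 or more, 71 with no minimum quality). When runs under 5 calls were left out and neighbouring runs of 1 genotype were joined, 14 segments remained, with 962 of the 968 own calls inside them. The 8 homozygous segments covered 77.08 Mb (64.69% of chromosomes 1 to 5) and the 6 heterozygous segments 36.27 Mb (30.44%). Inside homozygous segments 39 of 547 calls were heterozygous, and inside heterozygous segments 1 of 415 was homozygous. The 39 had a median read share of 42.11% for the called base, 32 of them were pericentromeric and 24 were G/C to A/T.

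The map of own calls shows these segments, and their coordinates on TAIR10 follow. On chromosome 5, calls were heterozygous from 146414 to 7870490 and homozygous from 8020537, in GolS5, to 26919149, in ZF1. On chromosome 4 a single homozygous segment ran from 641838, next to NGA4, to 18423177. On chromosome 2 homozygous segments ran from 52087 to 7966002 and from 11657938 to 19635895, where the last call lay in SCC3, with 14 heterozygous calls between 8358537 and 10917403. Chromosomes 1 and 3 changed genotype more often. Chromosome 1 was heterozygous from 107593 to 7461122 and again from 13511426 to 16519766, around its centromere, and homozygous from 7608262 to 13300690 and from 18219129 to 30328670. Chromosome 3 was heterozygous from 111525 to 11639282 and from 16368889 to 20462695, and homozygous across its centromere from 11858339 to 16311889 and from 20602507 to 22851065.

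**Figure D1:**
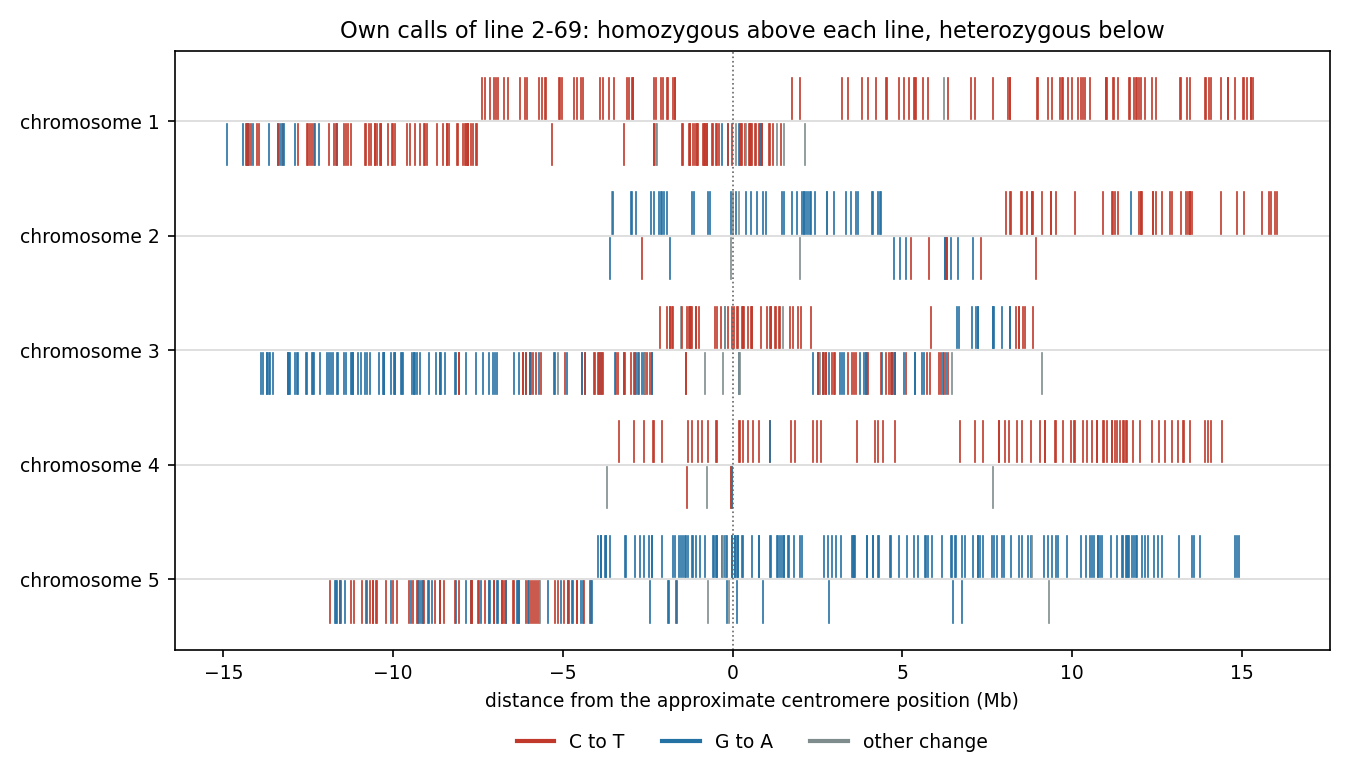
Own calls of line 2-69 on the 5 chromosomes, by distance from the approximate centromere position in Mb. Each tick is a call, above the line when homozygous (511 calls) and below it when heterozygous (457 calls), coloured by type of change. Homozygous ticks of chromosomes 1, 4 and 5 are nearly all of 1 colour, those of chromosomes 2 and 3 turn from one colour to the other, and several heterozygous segments mix both colours.

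Along the homozygous segments the strand of the changed cytosine was nearly constant. The 500 homozygous G/C to A/T calls were 290 C to T and 210 G to A, and of 495 neighbouring pairs on a chromosome 484 were of the same type (97.78%, 96.07 to 98.75). Chromosome 1 held 112 C to T and 0 G to A homozygous calls over 22.72 Mb, across the heterozygous segment at its centromere. Chromosome 5 held 150 G to A and 1 C to T, and chromosome 4 held 80 C to T and 1 G to A. On chromosome 2 the first 45 were all G to A, up to 7966002, and from 11657938 on 44 of 45 were C to T. On chromosome 3 there were 53 C to T and 13 G to A, with 12 of the 13 in an unbroken run from 20602507 to 22170508.

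On chromosome 2 the type turned over at the 14 heterozygous calls. The last homozygous G to A call before the turn, in AT2G18330, had 38 of 39 reads for the called base. The first homozygous C to T call after the turn had 16 of 16. The calls are 3691.9 kb apart, and the homozygous segments end on either side of that heterozygous segment. On chromosome 3 homozygous calls turned from C to T to G to A across the heterozygous segment from 16368889 to 20462695. The later switch back to C to T, between 22170508 and 22338157, lay inside a homozygous segment.

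The share of like pairs had lower values in the sets used for comparison. Among heterozygous own calls 287 of 424 pairs were of the same type (67.69%, 63.1 to 71.96). Among calls in all 5 files the share was 56.06% (236 of 421 pairs), and among the homozygous ones of these it was 58.43% (104 of 178). The homozygous own calls of the other lines had shares of 95.83% in 2-20, 97.59% in 3-72 and 96.43% in 3-75, so high shares were not particular to 2-69. Heterozygous own calls of these lines had 73.02% in 2-20, 82.18% in 3-72 and 77.88% in 3-75, each above the heterozygous share in 2-69. No test of these shares was made, because neighbouring calls are linked.

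**Figure D2:**
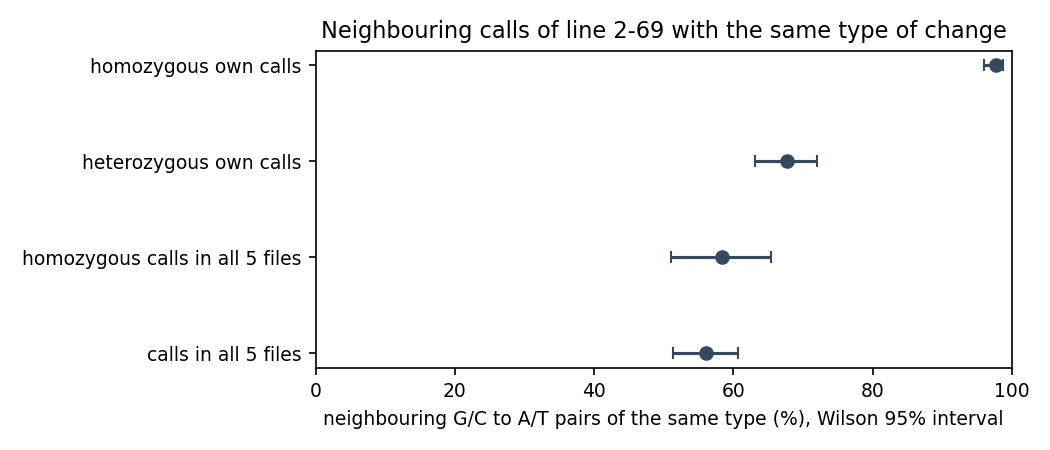
Share of neighbouring G/C to A/T pairs on a chromosome that are of the same type, in 4 sets of calls of line 2-69. Points are shares and bars Wilson 95% intervals. Homozygous own calls stand at 97.78% and calls in all 5 files at 56.06%.

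All 6 heterozygous segments held both types of change, in some cases in separate stretches. On chromosome 3 the 63 G/C to A/T calls from 111525 to 5858694 were all G to A, and the next 58, up to 11639282, were 30 C to T and 28 G to A. On chromosome 1 the first 32, up to 3337305, were 16 of each type, and the next 44, from 3354296 to 7461122, were all C to T. The heterozygous segment of chromosome 5 held 57 C to T and 38 G to A, and that of chromosome 3 from 16368889 to 20337331 held 31 and 21. The stretches with 1 type alone thus lay next to stretches with both, inside the same segment.

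The density of own calls in segments of either genotype depended on the quality limit. At quality of 50 or more, G/C to A/T calls numbered 11.14 per Mb over the heterozygous segments, with single segments between 5.471 and 15.29. They numbered 6.448 per Mb over the homozygous segments, with single segments between 4.555 and 10.55. The ranges overlap, and the difference was not tested. Over the same segments, at quality of 100 or more the order turned, with 2.068 per Mb in heterozygous and 6.344 in homozygous segments. With no minimum quality the densities were 15.19 and 6.448. Counted with either genotype, G/C to A/T calls numbered 11.17 per Mb in heterozygous and 6.76 in homozygous segments at quality of 50 or more. Counted so with no minimum quality, they numbered 15.22 and 8.096. At the limit of 50, the mixed heterozygous stretch at the start of chromosome 1 had 4.954 calls per Mb of each type. That of chromosome 3 ending at 11639282 had 5.254 (C to T) and 4.904 (G to A). Other mixed heterozygous stretches were less even. Their C to T and G to A densities were 7.38 and 4.92 on chromosome 5 and 1.954 and 3.517 on chromosome 2. They were 7.812 and 5.292 on chromosome 3 from 16368889, and 12.13 and 2.311 at the centromere of chromosome 1. The heterozygous stretches with 1 type alone had 10.71 C to T calls per Mb on chromosome 1 and 10.96 G to A calls on chromosome 3. Homozygous stretches of 1 type outside the pericentromeres had from 5.781 on chromosome 1 to 6.878 on chromosome 5. Stretch values leave out calls in runs under 5 calls of 1 genotype, so some homozygous values are low. On chromosome 5 they count 78 of 80 homozygous G to A calls from 15578925 to 26919149. From 8020537 to 15559833 they count 61 of 70. Near centromeres, a homozygous stretch of 1 type on chromosome 3 had 11.09 and a heterozygous one on chromosome 1 had 19.43.

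**Figure D3:**
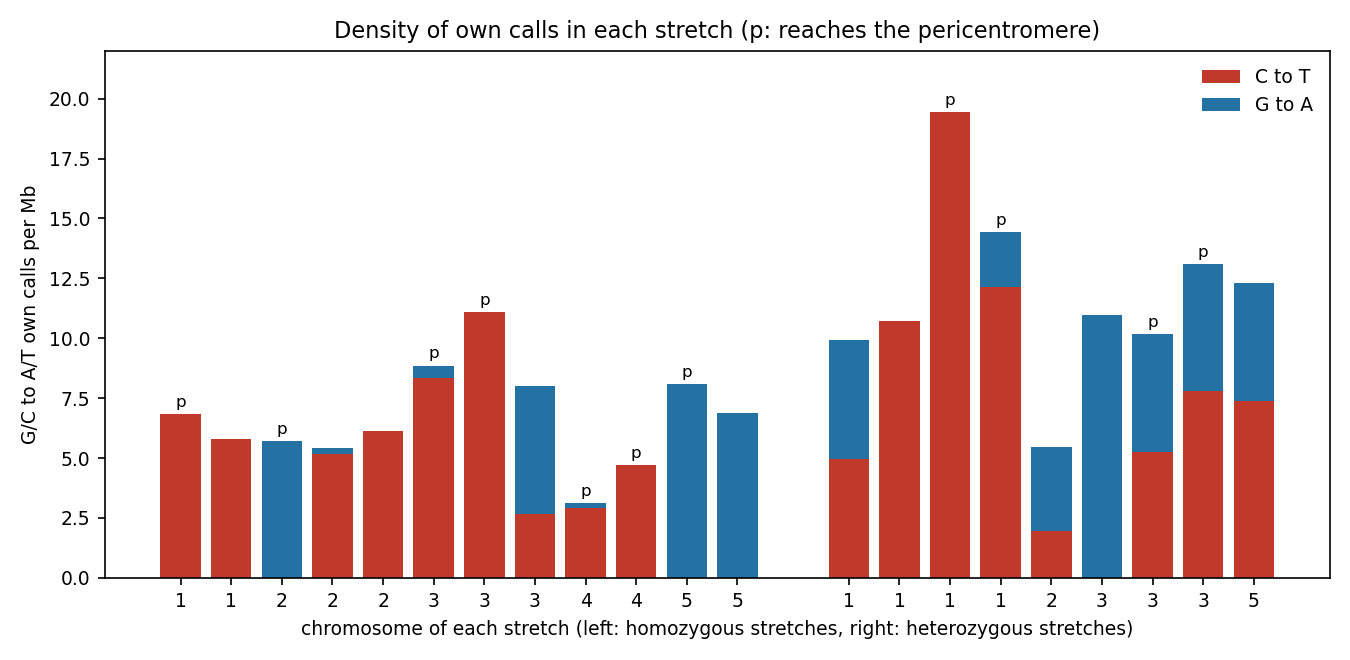
G/C to A/T own calls per Mb in each stretch of 1 genotype, stacked by type of change, with homozygous stretches on the left and heterozygous stretches on the right. Calls in runs under 5 calls of 1 genotype are left out, which lowers some homozygous bars. The letter p marks stretches with calls within 3 Mb of the approximate centromere. Homozygous bars are mostly of 1 colour, and the highest bar is a pericentromeric heterozygous stretch of chromosome 1 at 19.43 per Mb.

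Over whole chromosomes own calls numbered 4.789 per Mb on chromosome 4, 5.787 on chromosome 2, 8.085 on chromosome 1, 9.824 on chromosome 5 and 10.83 on chromosome 3. Chromosomes 2 and 4, with the highest homozygous shares, had the lowest densities at this quality limit. The median distance between neighbours was 78.61 kb, and 4 of 963 neighbouring pairs lay within 1 kb. The widest interval without an own call was 1.927 Mb, on chromosome 4 from 8773280 to 10700185. Within 3 Mb of the approximate centromeres lay 30.48% of the own calls (27.66 to 33.45), against 82.2% of the calls in all 5 files. Own calls were denser near the centromere than on the arms of every chromosome, with 14 against 9.737 per Mb on chromosome 3 and 5.167 against 4.609 on chromosome 4.

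The caller set genotypes from the same reads that are counted here, so read shares describe the calls and do not test them. The homozygous own calls had 14901 high-quality reads for the called base and 106 for the reference base (99.29% for the called base, Wilson 95% interval 99.15 to 99.42), and 474 of 511 had no reference read. Their depth ran from 10 to 307 reads, with a median of 29. The heterozygous own calls had a median share of 50% for the called base, from 30.01% to 82.86%, and 310 of 457 lay between 40% and 60%. Those with depth up to 100 had 7464 reads for the called base and 7324 for the reference base.

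Depth stood apart at 5 own calls, each with more than 100 reads. They were A14203940G on chromosome 3 with 5957 reads (reference base, position, called base), C3953648G on chromosome 4 with 5823, A14193531G on chromosome 3 with 4954, G1708A on chromosome 2 with 1366 and A11726852G on chromosome 5 with 307. All but G1708A were pericentromeric, and 4 of the 5 were not G/C to A/T. Heterozygous calls made in the rdr1 rdr2 rdr6-labelled library alone had a lower median share, 38.89%, than heterozygous calls in all 5 files, with 51.39%. The lowest quality among own calls was 50, for example at G3337305A of chromosome 1, and the highest just outside was 49, at T15140348G of chromosome 1. The rule left out 807 calls found in 2-69 alone, of which 766 were heterozygous.

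**Figure D4:**
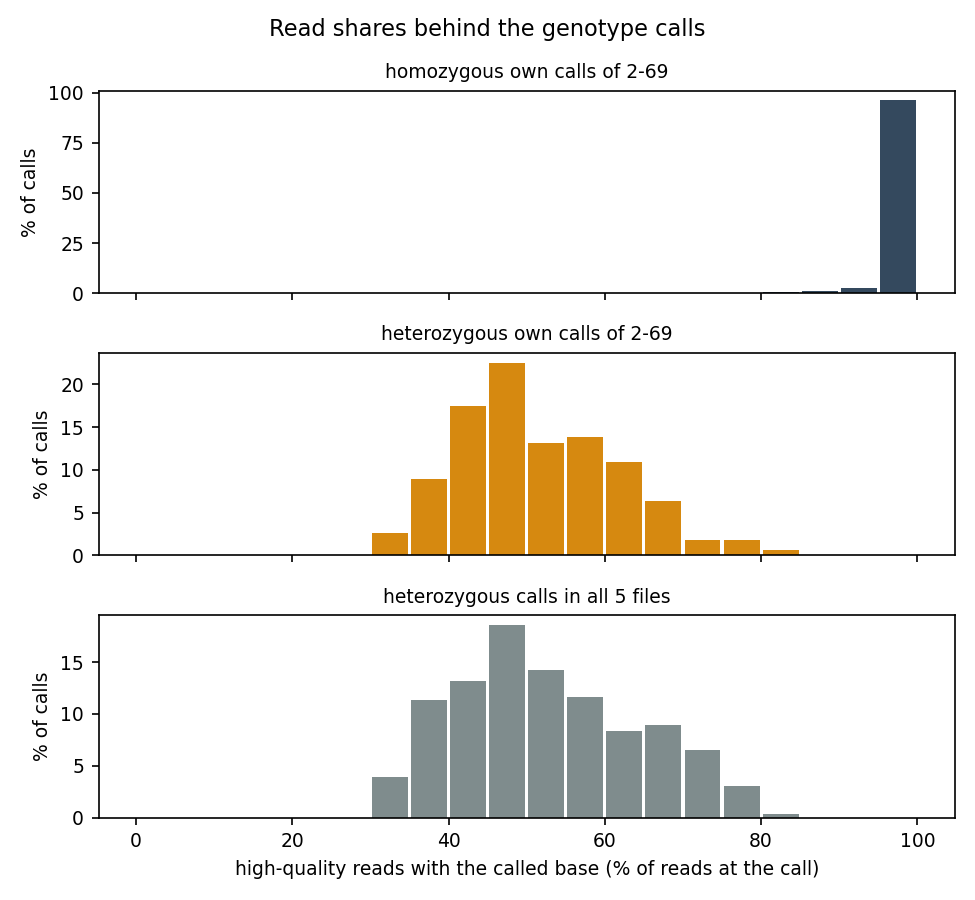
Share of high-quality reads with the called base, in percent, for homozygous own calls, heterozygous own calls and heterozygous calls in all 5 files. Bars give the share of the calls of each set in bins of 5 percentage points. Homozygous own calls sit in the bins next to 100%, and heterozygous own calls have a median of 50%.

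The line's named alleles were set beside the own calls around them. In DDM1 (AT5G66750, chromosome 5, 26648897 to 26653191) line 2-69 had the coding change G26652152A, C615Y, in 23 of 23 reads, and all 4 own calls within 1 Mb were homozygous. In RDR6 (AT3G49500, chromosome 3, 18348974 to 18353673), it had G18352401A, which makes the stop R269*, in 37 of 37 reads. All 24 own calls within 1 Mb of RDR6 were heterozygous, as were all 21 within 1 Mb of RDR1 (AT1G14790). All 5 within 1 Mb of RDR2 (AT4G11130) were homozygous. No call lay inside RDR1 or RDR2, where the files list single-base changes and would not show an insertion.

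Own calls fell in coding sequence about as often as G/C bases do. Of the 929 G/C to A/T calls, 34.66% were coding (31.67 to 37.78), against 34.36% of all G/C bases. The coding share was 30.4% among homozygous calls (26.53 to 34.57) and 39.63% among heterozygous calls (35.11 to 44.33). Intergenic calls went the other way, with 35.4% of the homozygous and 24.24% of the heterozygous calls, against 31.16% of all G/C bases. Of the homozygous own calls 36.2% were pericentromeric, and of the heterozygous ones 24.07%. The part of this in the coding shares was not tested.

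Coding G/C to A/T calls were missense in 69.57% of cases (64.33 to 74.34), synonymous in 27.02% and stop-gained in 3.416% (1.918 to 6.013). All 14765721 possible G/C to A/T changes of the coding sequences would give 64.61%, 30.42% and 4.972%. Among missense and synonymous own calls of any type, the missense share was 71.16% (227 of 319), against 76.19% (144 of 189) among calls in all 5 files, a difference of -5.031 points (-12.61 to 3.034) that did not pass Fisher's exact test (adjusted p = 0.2553). The set from the rdr1 rdr2 rdr6-labelled library alone held no coding call at these limits, so this comparison could not be made. Protein-altering calls (missense, stop-gained or splice-site) were 105 of 155 homozygous coding or splice-site own calls (67.74%) and 136 of 178 heterozygous ones (76.4%). That difference of -8.663 points (-18.22 to 0.9596) did not pass either (adjusted p = 0.1077). The G/C to A/T share was higher among homozygous own calls (97.85%, 500 of 511) than among heterozygous ones (93.87%, 429 of 457, Fisher's exact test, adjusted p = 0.002927). With quality of 100 or more the difference was -2.187 points (Fisher's exact test, adjusted p = 0.3774), and with no minimum quality it was 39.73 points. It was 18.17 points for calls missing from the rdr1 rdr2 rdr6-labelled library, whatever the other lines held. Its size and direction thus depended on the limits.

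**Figure D5:**
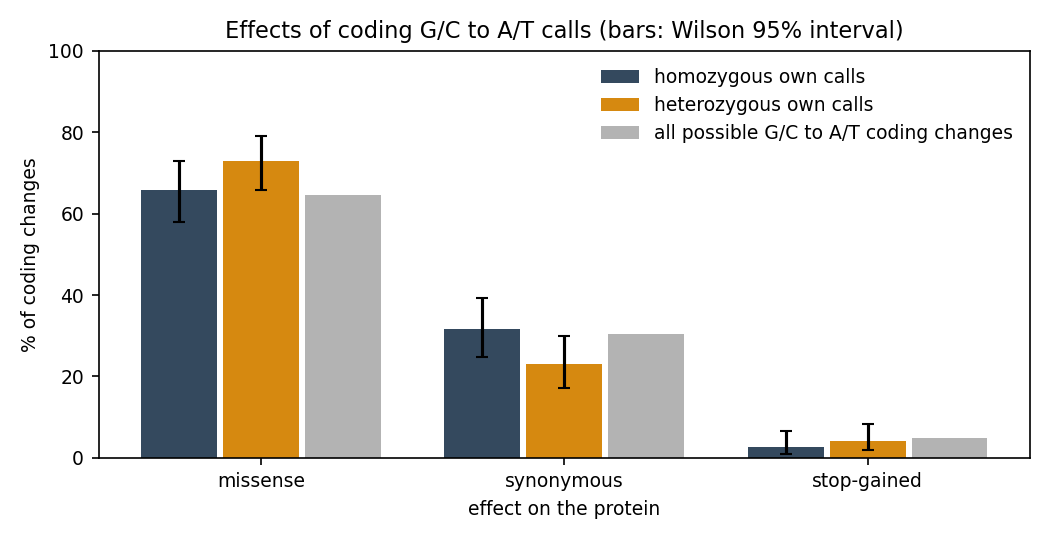
Effects of coding G/C to A/T own calls on the protein, as percent of the coding calls of each genotype, with Wilson 95% intervals, beside all possible G/C to A/T coding changes. Missense calls were 65.79% of the homozygous and 72.94% of the heterozygous calls, against 64.61% of possible changes.

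Own calls altered 240 of 27422 protein-coding genes (0.875%), and homozygous ones altered 105 (0.383%). The 241 protein-altering calls were 227 missense, 11 stop-gained and 3 splice-site changes. The altered proteins had a median length of 528 residues, against 348 for all proteins. The second median was not weighted by the number of bases that could change, and the difference was not tested. The most frequent residue changes were A to V and E to K with 17 each and D to N with 16. AT3G22160, a VQ motif gene on chromosome 3, was the only gene with 2 protein-altering calls, A175T and V146M, both heterozygous.

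Of the 14 stop-gained and splice-site calls 5 were homozygous, and none of these had a reference read. AT1G64500 (chromosome 1, 23953099 to 23954610), of the glutaredoxin family, had Q133* in 40 of 40 reads, at 36.14% of its length. AT1G67520 (chromosome 1, 25302628 to 25306357), a lectin protein kinase gene, had W221* in 48 of 48 reads. AT2G27650 (chromosome 2, 11792825 to 11797712), annotated as related to ubiquitin carboxyl-terminal hydrolases, had W251* in 33 of 33 reads. The stops of AT1G67520 and AT2G27650 fell at 26.79% and 22.69% of their proteins. BGLU24 (AT5G28510, chromosome 5, 10480757 to 10484073), a beta glucosidase gene, had Q104* in 15 of 15 reads. SVL2 (AT1G66970, chromosome 1, 24992386 to 24996359), an SHV3-like gene, had the donor site of intron 7 changed by C24993132T in 33 of 33 reads.

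The other 9 stop-gained and splice-site calls were heterozygous. NFXL1 had Q63* in 12 of 34 reads, at a quality of 50, the lowest among own calls. The zinc-finger gene AT2G23530 had R63* in 16 of 25 reads, and WRKY15, a WRKY transcription factor, had R90* in 16 of 31. AT1G17450, annotated as a subunit of TFIIIC, which recruits RNA polymerase III, had W396* in 25 of 43 reads. TGA4, a bZIP transcription factor, had Q334* in 20 of 47 reads, at 91.76% of its protein, so most of its length precedes the stop. AT3G17365, of a methyltransferase superfamily, had W14* in 20 of 48 reads, and the F-box gene AT3G22350 had W119* in 23 of 51. Heterozygous splice-site changes lay at the donor of intron 9 of ALB1, a magnesium chelatase subunit of chlorophyll synthesis, in 12 of 29 reads, and at the acceptor of intron 3 of AT3G26340 in 13 of 28.

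Among homozygous missense calls, 12 were taken by the lowest BLOSUM62 score, a measure of how seldom 2 residues replace each other in related proteins. All 12 scored -3, and 9 of them replaced a proline with leucine. They lay in HK3 (AT1G27320, a cytokinin receptor, R271W, 30 of 30 reads), PEP (AT4G26000, a KH-domain RNA-binding protein, P117L, 36 of 36), THY-1 (AT2G16370, thymidylate synthase, P147L, 24 of 24) and STY46 (AT4G38470, a protein kinase, R28C, 22 of 22). Others were GolS5 (AT5G23790, galactinol synthase, P245L, 36 of 38 reads), RLP11 (AT1G71390, a receptor-like protein, R350C, 41 of 41) and ADK (AT2G37250, P60L, 32 of 33). The rest were MUS81, described below, AT5G48770 of the TIR-NBS-LRR disease resistance class (P1098L), the kinase gene AT5G50860 (P316L), the pentatricopeptide repeat gene AT5G24060 (P112L) and AT5G24275, annotated as an En/Spm-like transposon (P764L). GolS5 lies at the start of the homozygous segment of chromosome 5.

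Genes of 4 lists were then checked for protein-altering own calls. Changes shared with other libraries, such as the RDR6 stop and the DDM1 change, are not counted. Of 38 RNA silencing genes 1 was altered by an own call, against 0.875% of all protein-coding genes. This was XRN4 (AT1G54490, chromosome 1, 20350109 to 20356916), an exoribonuclease that degrades uncapped transcripts, with P722S in 39 of 39 reads. AGO3, an Argonaute gene, had a homozygous synonymous call (G36G, 17 of 18 reads).

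Of 28 meiosis and recombination genes found in the annotation as protein-coding, 2 were altered, both homozygous. FANCM (AT1G35530, chromosome 1, 13089816 to 13097286), a helicase that limits meiotic crossovers in Arabidopsis, had T214I in 28 of 28 reads. MUS81 (AT4G30870, chromosome 4, 15028380 to 15032645), an endonuclease that cuts joint DNA molecules in recombination, had P54L in 18 of 18 reads. Both lay in homozygous segments, among calls of the same genotype.

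Of 34 DNA methylation and chromatin genes, 0 had a protein-altering own call. MOM1, needed for silencing of transposons, and DME, a DNA glycosylase that removes methylated cytosine, had 1 heterozygous intron call each. Of 31 genes of the centromere, kinetochore and cohesin, 0 were altered, and the cohesin genes SCC3 (L888L, homozygous, 24 of 24 reads) and SYN4 (D778D, heterozygous, 22 of 43) had synonymous calls. At 0.875% of genes, less than 1 altered gene per list of this size corresponds to the background, so the counts of 0 to 2 say little about the lists.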

How the data were processed

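The authors deposited 1 list of single-base calls per library (VCF 4.1, made with samtools 0.1.19-44428cd, per the file headers). Bowtie, SAMtools, Bismark and the build TAIR10 are listed in the submitters' processing notes, and the sources used here give no filters on the calls. The quality score of each call is phred-scaled, per the file headers, and depth, genotype and reads for each base are also the authors' deposited values. Mapping quality was 20 at every own call, and 10 own calls list more than 1 base and were classed by the first.

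Calls were matched by chromosome, position and called base. The chromosome lengths and every reference base (0 mismatches) matched RefSeq's TAIR10.1 assembly, which gave sequences and gene models. Changes were translated on the longest coding sequence, and a splice site was taken as the 2 bases at either end of an intron. Approximate centromeres were set at 15, 3.6, 14, 4 and 12 Mb of chromosomes 1 to 5. Shares have Wilson 95% intervals, and a Fisher p below 1e-300 is given as 1e-300. Of 6 planned tests 5 could be made and were adjusted together.

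Named genes were DDM1 and the RDR genes, all genes with stop or splice-site calls, list genes with a protein-altering call, 12 homozygous missense calls of lowest BLOSUM62 score (ties by quality), genes with 2 altering calls, and genes at the ends of homozygous blocks, of which a few are printed, from segments of 20 or more calls. List genes with other own calls were added after their values were seen. The members and lists were chosen with earlier results of these data known, and the comparison of neighbouring types, the segments and the stretches were added after seeing the data. Tests used scipy 1.17.1 with numpy 2.4.6 under Python 3.11.15, translation used Biopython 1.88 and plots matplotlib 3.10.9. The scripts were tested on simulated data. Only sites with a call are listed, so a site without one may lack coverage.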

Additional observations from a re-analysis of the deposited data

How the results depend on the processing

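No paired analysis was possible because there was 1 library per line. With quality of 100 or more there were 585 own calls, 98.12% G/C to A/T, 85.98% homozygous, 33.5% pericentromeric, 143 protein-altering and 20 long runs, and the homozygous minus heterozygous G/C to A/T difference became -2.187 points. With no minimum quality there were 1698, 69.91% G/C to A/T, 30.15% homozygous and 46.88% pericentromeric, with 71 long runs. Calls missing from the rdr1 rdr2 rdr6-labelled library, whatever the other lines held, were 86.31% G/C to A/T, 46.78% homozygous and 37.48% pericentromeric, with 53 long runs. The number of long runs was 20 when single calls did not break a run and 14 when joined into segments. The pericentromeric share was 21.8% within 2 Mb and 43.49% within 5 Mb. The share of same-type neighbours was 95.83% in 2-20. Homozygous G/C to A/T calls found in 2-69 alone but outside the limits had the type of the nearest homozygous own call in 16 of 19 cases (84.21%). The density of G/C to A/T calls with the genotype of their segment was 4.69 per Mb in heterozygous minus homozygous segments. This difference became -4.28 at quality of 100 or more and 8.75 with no minimum quality. The cause of these shifts was not tested. The segments, the densities and the checks of neighbouring types were chosen after seeing the data. The other 80 values under alternatives kept their direction and side of the threshold, though some changed in size, or moved little. The missense share against the rdr1 rdr2 rdr6-labelled library alone could be computed without a minimum quality (270 of 372 against 34 of 54, Fisher's exact test, unadjusted p = 0.1497). Heterozygous own calls had a median quality of 82 at a median depth of 32, and homozygous ones 162 at 29, so the quality limit bears on the homozygous share.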

Other observations

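In protein-coding genes the changed base was read on the coding strand of the gene. Of 513 G/C to A/T own calls in such genes, the guanine lay on the coding strand in 291. The cytosine share was 43.27% (Wilson 95% interval 39.05 to 47.6), against 47.28% of all G/C bases of these genes, which lies inside the interval. It was 43.95% among homozygous and 42.64% among heterozygous calls. No test was made.

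Own calls of 2-69 left out by the quality and depth limits were looked up by genotype segment. Heterozygous G/C to A/T calls left out inside homozygous segments had the type of the nearest homozygous own call in 63 of 111 cases (56.76%, 47.47 to 65.59), and those inside heterozygous segments in 69 of 154 (44.81%, 37.17 to 52.69).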
